A study of Mus musculus with 24 samples.

Results

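The olfactory receptor genes of mouse chromosome 9 that are named Olfr829 to Olfr986 by number, pseudogenes with the suffix -ps left out, make a set of 110 genes among the 57010 Ensembl genes counted in each of the 2 tables of this study and among 1107 numbered receptor genes in all. The rule that picks them uses gene names and no measured value. Messenger RNA of the olfactory epithelium was counted in 24 libraries, each from a male wild-type C57BL/6J mouse aged 8 weeks, with 3 biological replicates in each of 8 groups. In the AD table mice were exposed to decanal (a straight-chain aldehyde), to acetophenone (an aromatic ketone), to a 1:1 mixture of both, or to no odor. In the OC table they were exposed to octanal (a shorter straight-chain aldehyde), to cis-3-hexenol (an unsaturated alcohol with the smell of cut grass), to a 1:1 mixture of both, or to no odor. Every mouse was housed alone, had 4 h of habituation and then 90 min with a filter paper that carried 10 µL of odorant or nothing. No animal carried a transgene or a deletion. Library totals ran from 20604861 to 24802512 counts in the AD table and from 19003768 to 24531349 in the OC table.

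An olfactory sensory neuron transcribes a single receptor gene, from a single allele, out of the whole repertoire, and sends its axon to the glomeruli of that receptor in the olfactory bulb. Receptor proteins couple to the G protein subunit encoded by Gnal and to the adenylyl cyclase encoded by Adcy3, and cyclic AMP then opens a channel built from Cnga2, Cnga4 and Cngb1. Because each receptor is used by a small share of the neurons, its transcript is rare in whole epithelium, and in some published work the transcript of a receptor falls after its own ligand is given, which is why receptor mRNA after odor exposure has been used to look for receptors of that odorant. In bulk tissue, fewer neurons of a type and less receptor RNA per neuron cannot be told apart.

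Of the 110 genes, 107 were annotated as protein coding and 3, Olfr908, Olfr915 and Olfr936, as polymorphic pseudogenes, which are intact in some mouse strains. All lay on chromosome 9, in a centromere-side cluster of 30 genes and a distal cluster of 80 genes with a gap of 17 Mb between them. The annotation held 133 numbered receptor genes on this chromosome, of which 23 had numbers outside the range and were not counted here. RefSeq synonyms put the 110 genes into 27 receptor families, and no family had members in both clusters. The largest was MOR171 with 27 genes, followed by MOR162 with 10 and by MOR165 and MOR224 with 8 each, all in the distal cluster. The largest family of the centromere-side cluster was MOR145 with 5 genes.

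Promoters of receptor genes are known for homeodomain sites, bound by factors such as Lhx2, and for Olf/Ebf sites, bound by the Ebf factors, and 3 are shown here for genes whose levels are described further on. RefSeq gave a start for 93 of the 110 genes, and the 250 bases before each of 94 such starts were searched on both strands for the homeodomain core, spelled TAATTA or TAATTG, and for the Olf/Ebf core, spelled CCCNNGGG, where N is any base. A window with several matches was counted once. Olfr868 is among the 10 most abundant of these receptors without odor, and the window lies at chr9:20098376-20098625 on the plus strand. Olfr983 has been reported as an acetophenone receptor, and its window lies at chr9:40093559-40093808 on the minus strand. Olfr860 differed between decanal and acetophenone, and its window lies at chr9:19849748-19849997 on the minus strand. Coordinates are those of RefSeq on GRCm38.p6, each sequence runs 5′ to 3′ towards the gene, and capitals mark the matches; CAATTA is TAATTG read on the other strand.
Olfr868: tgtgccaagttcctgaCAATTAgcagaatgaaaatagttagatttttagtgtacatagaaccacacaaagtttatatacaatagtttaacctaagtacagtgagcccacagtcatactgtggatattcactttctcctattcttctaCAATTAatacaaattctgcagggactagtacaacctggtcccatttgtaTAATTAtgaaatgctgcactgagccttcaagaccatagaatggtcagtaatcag
Olfr983: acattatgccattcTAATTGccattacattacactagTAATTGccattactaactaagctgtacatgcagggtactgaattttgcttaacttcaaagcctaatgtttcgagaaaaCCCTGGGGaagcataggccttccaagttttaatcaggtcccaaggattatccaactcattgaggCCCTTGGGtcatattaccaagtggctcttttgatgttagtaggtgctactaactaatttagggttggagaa
Olfr860: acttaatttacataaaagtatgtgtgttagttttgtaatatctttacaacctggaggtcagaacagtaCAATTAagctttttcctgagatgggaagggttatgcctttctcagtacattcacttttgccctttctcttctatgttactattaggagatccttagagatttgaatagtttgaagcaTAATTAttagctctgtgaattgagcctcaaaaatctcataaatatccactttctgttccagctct
A homeodomain core stood in 34 of the 94 windows of the chromosome 9 genes, 36.2%, against 36.7% of the 850 windows of other receptors and 11.3% of the 32851 windows of all genes. The Olf/Ebf core stood in 1 of the 94 windows, that of Olfr983, which is 1.06%, against 2.94% of the windows of other receptors and 11.8% of those of all genes. The RefSeq start lay within 50 bases of the start in the transcript annotation for 17 of the 94 windows, among which 52.9% held a homeodomain core, against 43.9% of 114 such windows of other receptors. For most genes the true start may therefore lie outside the window searched.

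Without odor the chromosome 9 receptors were low, and a few genes carried much of their RNA. Levels are given per length, in TPM (counts divided by transcript length and scaled to the same total in every library), because only such values can be compared between genes. Olfr969 stood highest, at 10.6 ± 1.08 TPM in the AD no-odor mice and 8.73 ± 3.31 TPM in the OC no-odor mice (SD, n = 3 each here and for all means that follow). Olfr921 followed in the AD no-odor mice at 7.28 ± 2.00 TPM and had 3.44 ± 1.60 TPM in the OC no-odor mice, and Olfr910 had 5.98 ± 1.03 and 4.35 ± 1.56 TPM. In the AD mice Olfr969 stood above both by more than the sum of the SDs, whereas Olfr921 and Olfr910 differed by less than their spread in either table. Olfr873, at 4.68 ± 0.529 TPM in the AD no-odor mice, and Olfr835, at 4.54 ± 0.624 TPM, differed by less than their spread. Olfr855, Olfr972, Olfr868, Olfr957 and Olfr874 completed the first 10 in the AD no-odor mice, between 3.98 ± 1.68 TPM for Olfr855 and 3.17 ± 0.812 TPM for Olfr874, and neighbours among them again differed by less than their spread. The same 10 genes were the first 10 in the OC no-odor mice, and they held 39.0% of the summed TPM of the 110 genes in the AD no-odor mice and 38.2% in the OC no-odor mice.

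By family, MOR171 held the largest summed level, 37.5 TPM in the AD no-odor mice and 27.1 TPM in the OC no-odor mice, with Olfr969, Olfr972 and Olfr957 among its genes. MOR165 followed with 19.7 TPM in the AD no-odor mice and 11.9 TPM in the OC no-odor mice, although it has fewer genes than MOR162. Over the 110 genes the levels of the AD and OC no-odor mice had a rank correlation of 0.95, a description across genes, which differ in length and share both annotation and method. The AD and OC tables were deposited separately and their no-odor mice are different animals, so levels were compared between groups only within a table. At the other end, Olfr891, Olfr926 and Olfr952 had no count in any of the 24 libraries. The transcript of Olfr952 shares 46.2% of its 50-base stretches with that of Olfr955. The transcript of Olfr926 shares 18.96% with that of Olfr924, and the transcript of Olfr891 shares none with another gene. Whether reads of these genes were placed elsewhere was not tested.

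**Figure D1:**
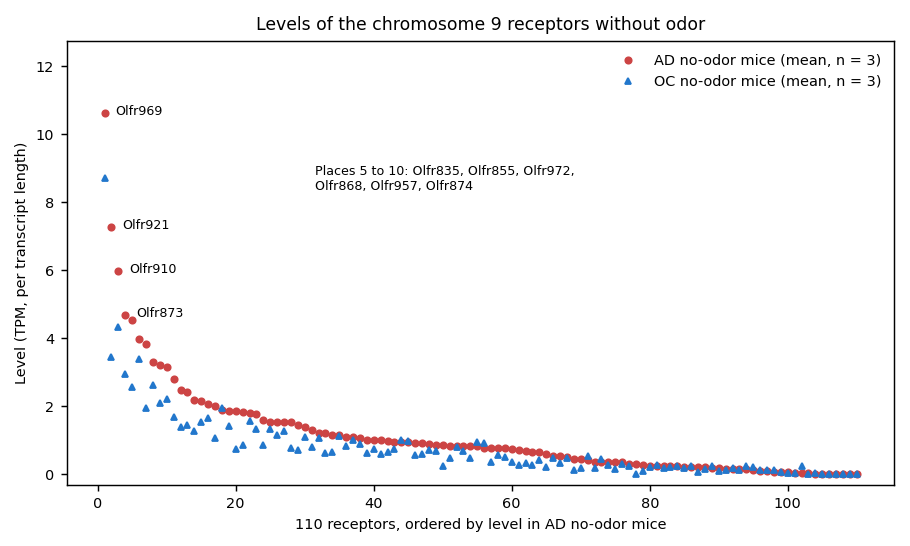
Level of each of the 110 receptors in no-odor mice of the AD and OC tables, in TPM, with the mean of 3 libraries per gene. Olfr969 stands highest in both, at 10.6 and 8.73 TPM, and most genes lie far below the first 10.

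Low counts set the precision of every test that follows. A filter on low counts kept 83 of the 110 genes in the AD table and 81 in the OC table, and 27 passed in neither, the 3 polymorphic pseudogenes among them. Olfr832 and Olfr902 passed in the AD table alone. Over the 110 genes the median of the mean count per library was 22.4 in the AD table and 21.9 in the OC table, and the highest means were 250 and 207 counts. The transcripts of 93 of the 110 genes share at least one 50-base stretch with another gene, 19 share over 10% of theirs and none over 50%. Among the genes named below, Olfr857 shares 23.2%, Olfr910 17.8%, Olfr972 15.2%, Olfr875 14.4%, Olfr954 12.5% and Olfr960 10.1%, and their counts are uncertain to the extent that shared reads were split.

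As a share of all counts, here as CPM (counts scaled to the library total), the 110 genes held 176 ± 20.6 CPM in decanal mice, 141 ± 11.1 in acetophenone mice, 163 ± 21.0 in mice given their mixture, and 175 ± 10.9 in the AD no-odor mice. In the OC table they held 166 ± 18.5 CPM in octanal mice, 189 ± 13.0 in cis-3-hexenol mice, 198 ± 36.3 in mice given their mixture, and 137 ± 22.5 in the OC no-odor mice. Set against all receptor counts, the share of the chromosome 9 genes was 3.63%, 3.92% and 3.72% in decanal mice, 2.98%, 2.65% and 2.84% in acetophenone mice, 3.76%, 3.12% and 3.77% in mixture mice, and 3.42%, 3.29% and 3.49% in the AD no-odor mice. The 3 acetophenone libraries thus lay below all other libraries of their table. In the OC table the share was 3.31% ± 0.26 in octanal mice, 3.83% ± 0.08 in cis-3-hexenol mice, 3.70% ± 0.61 in mixture mice and 3.70% ± 0.41 in no-odor mice, and the groups overlapped except for octanal and cis-3-hexenol.

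**Figure D2:**
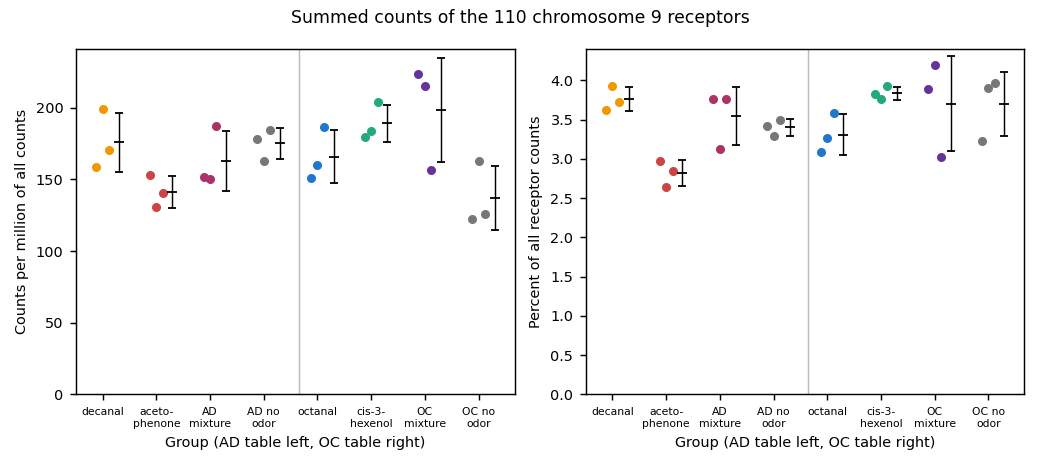
Counts of the 110 chromosome 9 receptors per library, in CPM of the library total and as a percentage of all receptor counts, with odorant groups left of the no-odor group of each table; points are libraries and bars the mean ± SD of 3. The acetophenone libraries sit between 2.65% and 2.98% of receptor counts, below every other library of the AD table.

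Single libraries carried part of these differences. Over the 81 genes tested in the OC table, library 3 of the mixture group was the lowest of its 3 for 52 genes, and library 1 of the no-odor group for 48. Their shares of all counts were 157 CPM in mixture library 3, against 223 and 215 in the other mixture libraries, and 123 CPM in no-odor library 1, against 163 and 126. No-odor library 2 was the highest of its 3 for 50 of the 81 genes, octanal library 3 of its 3 for 50, and octanal library 1 the lowest for 46. Over all genes, no-odor library 3 of the OC table stood apart from the other no-odor libraries, with a chi-square statistic per degree of freedom of 103 and 80.4 against them, beside 5.00 to 35.9 for all other pairs within groups. In the AD table decanal library 2 was the highest of its 3 for 51 of 83 genes, and mixture library 3 of its 3 for 48. Some of the counts of called genes and of the medians in fits without 1 of these libraries are given below with the comparison.

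Decanal mice were set against the no-odor mice of the AD table to find receptors whose RNA changes after exposure to this aldehyde. Of the 83 genes tested, Olfr954 rose and Olfr835 fell, and the median log2 fold change was 0.09, which turned to -0.03 without decanal library 2 and was 0.18 without no-odor library 3. In that comparison 23.9% of all 19525 genes tested were called at an adjusted p under 0.05, a far larger share than among these receptors, and of the 845 other receptors 8 rose and 32 fell. Olfr835 (ENSMUSG00000045204), of family MOR150 in the centromere-side cluster, had 2.54, 4.00 and 2.65 CPM (from here on scaled by TMM factors) in decanal mice, against 5.32, 5.62 and 4.42 CPM in no-odor mice. The groups did not overlap, and the log2 fold change, called log2 change from here on, was -0.74 (SE 0.21, adjusted p = 0.0191, edgeR's quasi-likelihood test with Benjamini-Hochberg adjustment over all genes, as for every adjusted p that follows). Olfr954 (ENSMUSG00000094745), of family MOR171, had 1.06, 0.959 and 1.67 CPM in decanal mice, against 0.473, 0.687 and 0.333 CPM in no-odor mice, a log2 change of 1.30 (SE 0.43, adjusted p = 0.0386) without overlap. Olfr972, of the same family, had 1.61, 1.67 and 1.16 CPM in decanal mice and 2.95, 2.92 and 2.04 CPM in no-odor mice, and missed the threshold at an adjusted p of 0.0503. With each library dropped in turn, Olfr835 and Olfr954 each stayed called in 2 of 6 fits. The count of 2 called genes became 0 without no-odor library 1 or decanal library 3, 1 without decanal library 1, and 3 without no-odor library 2 or decanal library 2.

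The same question was put to acetophenone. None of the 83 genes was called by edgeR, beside 0.00512% of all genes, which is 1 gene of 19525, and none by DESeq2, whereas 14 of the 83 had an unadjusted p under 0.05, beside 6.59% of all genes and 13.5% of the 845 other receptors, and 13 of the 14 were lower. Other receptors with such a p were also mostly lower, 82 against 32 higher. The log2 fold change was negative for 68 of the 83, with a median of -0.34, beside -0.09 over the 845 other receptors and 0.01 over all genes. With offsets for transcript length and GC content 22 of the 83 were positive, rather than 15. The median was then -0.27, beside -0.04 over other receptors. With acetophenone 20 of the 83 lay below no odor without overlap, beside 6.34% of all genes and 14.1% of other receptors, and 2 lay above, beside 8.2% and 5.21%. Both clusters had negative medians, -0.41 over the 63 distal genes tested and -0.26 over the 20 of the centromere-side cluster. By family, all 8 of MOR224 were negative, with a median of -0.55, as were 4 of 5 in MOR161, with a median of -0.88, and 15 of 19 in MOR171, with a median of -0.41. In MOR165 3 of 6 were positive and the median was -0.01, which turned to 0.07 with offsets for transcript length and GC content. Among other families, 1 of 7 was positive in MOR162, 0 of 4 in MOR145 and 1 of 5 in MOR223. Their medians were -0.22, -0.25 and -0.43. In MOR146 2 of 3 were positive, with a median of 0.34. No difference between families was tested.

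The lowest p-values of this comparison belonged to Olfr904, Olfr875 and Olfr878. Olfr904 (ENSMUSG00000094380), of family MOR167, had 3 counts in acetophenone library 1 and none in the others, against 11, 11 and 16 counts in the no-odor libraries. Per total count that is a ratio of 0.0773, with an exact 95% interval for counting error alone of 0.0153 to 0.243, and the adjusted p was 0.412. Olfr875 (ENSMUSG00000058628), of family MOR161, had 0.243, 0.125 and 0.169 CPM with acetophenone, against 0.591, 0.687 and 0.875 CPM without odor, a log2 change of -1.96 (SE 0.50, adjusted p = 0.424). Olfr878 (ENSMUSG00000066747), of family MOR163, had 2.92, 2.51 and 2.37 CPM with acetophenone, against 4.37, 4.68 and 5.08 CPM without odor, a log2 change of -0.86 (SE 0.24, adjusted p = 0.464). In each of the 3 genes the groups did not overlap. With no filter on low counts 5 of 107 chromosome 9 genes were called in this comparison, all lower. Of all 33134 genes then tested 88 were called higher and 212 lower, and of 982 other receptors 5 and 18. Without acetophenone library 1 the count was 1, beside 6 higher and 33 lower of all 19893 genes tested.

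Some of the receptors have published ligands, recalled here from the literature. Olfr923, of family MOR164, and Olfr983, of family MOR162, have been reported as acetophenone receptors. Olfr923 had 2.59, 1.34 and 0.805 CPM with acetophenone, against 3.31, 1.93 and 2.17 CPM without odor, and these overlapped, with a log2 change of -0.64 (SE 0.35, adjusted p = 0.773). Olfr983 had 2.55, 2.80 and 2.71 CPM with acetophenone, against 3.51, 3.48 and 3.21 CPM without odor, and these did not overlap, with a log2 change of -0.34 (SE 0.24, adjusted p = 0.819). That change is the median of the 83 genes tested, of which 20 lay below no odor without overlap. Olfr910 and Olfr912 of MOR165, which share 17.7% of the 50-base stretches of Olfr910 and have been reported as receptors of male-mouse odors, had log2 fold changes of -0.18 (adjusted p = 0.885) and 0.28 (adjusted p = 0.792). None of the 4 was called in this comparison, and at this depth that does not show that they did not change.

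**Figure D3:**
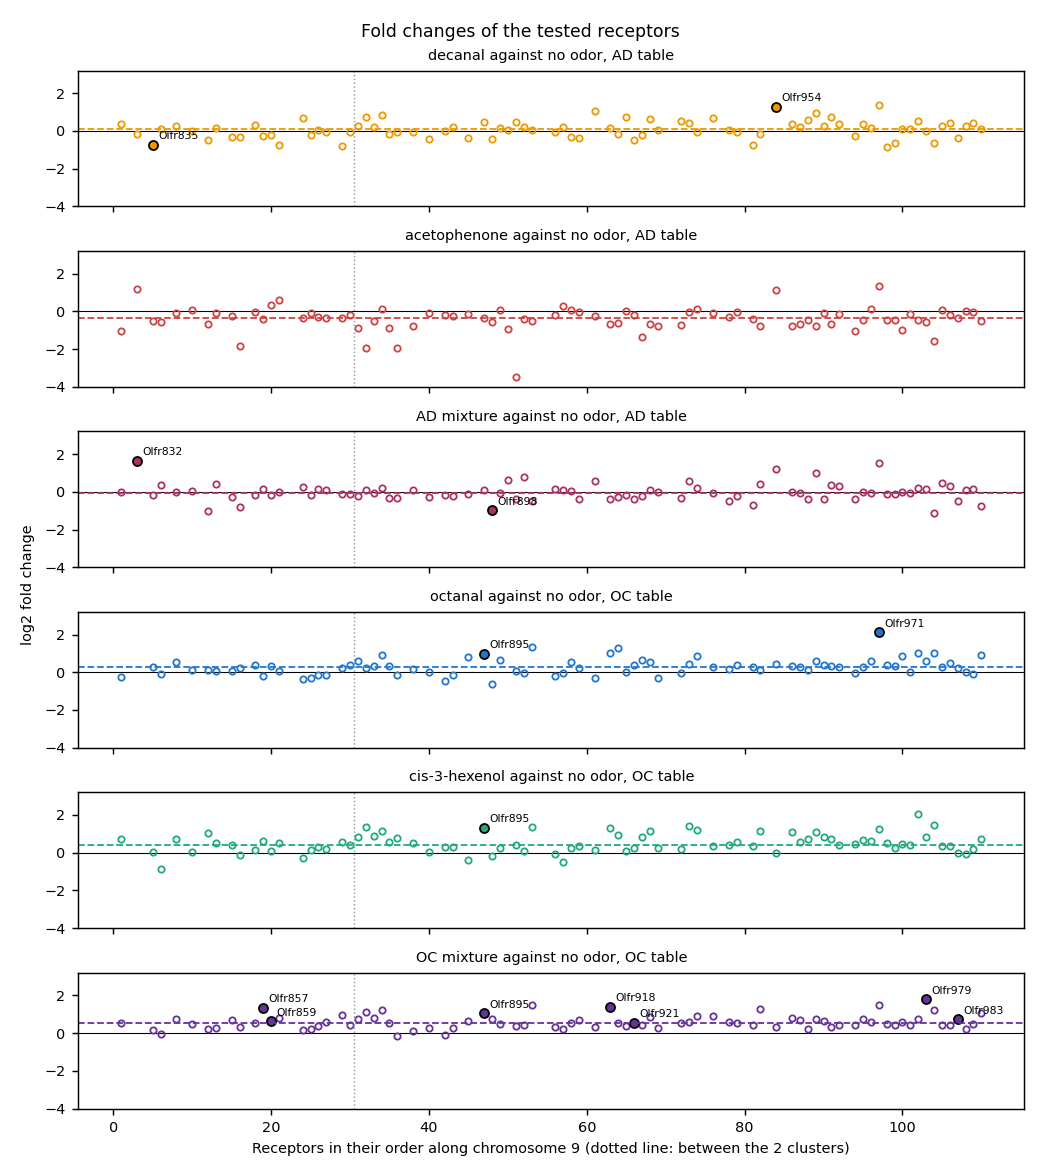
Log2 fold change of each tested chromosome 9 receptor (vertical axis) against the no-odor mice of its own table, in gene order along chromosome 9 (horizontal axis, with a dotted line between the 2 clusters), 1 panel per odorant or mixture. Filled points are called genes, and the dashed line is the median. In the acetophenone panel 68 of 83 genes lie below 0, 15 above, and none is called (22 of 83 above with offsets for transcript length and GC content). In the panel of the octanal and cis-3-hexenol mixture 78 of 81 lie above 0 and 7 are called (68 of 81 and 2 with these offsets).

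Decanal and acetophenone were then compared directly, since an effect called in one comparison and not in the other does not show a difference between them. This comparison shares its libraries with both comparisons above. Of the 83 genes 12 were higher with decanal and 2 were lower, 16.9% in all, beside 27% of all genes and 16.0% of the 845 other receptors. Among all genes 12.6% were higher and 14.4% lower, and among the other receptors 81 were higher and 54 lower. The median log2 fold change was 0.45 over the chromosome 9 genes, 0.04 over other receptors and 0.02 over all genes, and 64 of the 83 were positive. With offsets for transcript length and GC content the median was 0.36 over the chromosome 9 genes, with 60 of 83 positive, and -0.001 over other receptors. Without decanal library 2 the median was 0.29 over the chromosome 9 genes and -0.04 over other receptors. Groups without overlap numbered 20 higher with decanal, beside 21.2% of all genes and 18.6% of other receptors, and 4 lower, beside 20.8% and 13.3%. Of the 63 distal genes 11 were higher and none lower, with a median of 0.60. Of the 20 centromere-side genes, Olfr867 was higher and Olfr859 and Olfr860 were lower, with a median of 0.18. The difference between the clusters was not tested.

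Olfr875 had the smallest p. It had 0.888, 1.92 and 0.771 CPM with decanal, against 0.243, 0.125 and 0.169 CPM with acetophenone, a log2 change of 2.69 (SE 0.48, adjusted p = 0.000809). The acetophenone values rest on 6, 3 and 4 counts. Olfr904 had 23, 13 and 16 counts with decanal, against 3, 0 and 0 counts with acetophenone, a ratio per total count of 17.9 with an exact 95% interval for counting error alone of 5.79 to 89.5 (adjusted p = 0.0023). Olfr874 (ENSMUSG00000063350), the neighbour of Olfr875 by number and of the same family, had 3.55, 4.63 and 4.37 CPM with decanal, against 2.63, 1.59 and 1.44 CPM with acetophenone, a log2 change of 1.14 (SE 0.27, adjusted p = 0.00623). In these 3 genes every decanal library stood above every acetophenone library, and each stayed called when any 1 of the 6 libraries was left out and under every other setting in which it was tested. In all 3 the no-odor mice overlapped the decanal mice and lay above every acetophenone library, as for Olfr874 at 3.07, 4.51 and 2.92 CPM. The transcript of Olfr875 shares 8.49% of its 50-base stretches with that of Olfr874, which shares 6.54% of its own with Olfr875. The counts of these neighbours may therefore not be independent.

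Other called genes of this comparison came from several families. Olfr959, of family MOR224, had 3.47, 5.42 and 3.04 CPM with decanal, against 2.03, 1.88 and 2.03 CPM with acetophenone, a log2 change of 1.00 (SE 0.26, adjusted p = 0.00925). Olfr923 had 3.80, 4.29 and 3.51 CPM with decanal, against 2.59, 1.34 and 0.805 CPM with acetophenone, a log2 change of 1.29 (SE 0.34, adjusted p = 0.0111). Olfr969, the most abundant of the set, had 8.24, 9.71 and 9.63 CPM with decanal, against 7.45, 3.81 and 4.19 CPM with acetophenone, a log2 change of 0.83 (SE 0.27, adjusted p = 0.0327). All 3 were free of overlap. The remaining higher genes were Olfr957, Olfr933 and Olfr924 of MOR171, Olfr960 of MOR224, Olfr881 of MOR162 and Olfr867, at log2 fold changes between 0.85 for Olfr924 and 1.88 for Olfr881. When libraries were left out in turn, Olfr959 and Olfr923 stayed called in 5 of 6 fits, Olfr957 and Olfr881 in 3, Olfr867, Olfr960 and Olfr924 in 2, and Olfr969 and Olfr933 in 1. In Olfr881 acetophenone library 1, at 1.13 CPM, stood far above the others of its group, at 0.251 and 0.127 CPM. The lower pair belongs to MOR146. Olfr859 had 3.17, 4.04 and 3.43 CPM with decanal, against 4.90, 5.65 and 5.04 CPM with acetophenone, a log2 change of -0.55 (SE 0.18, adjusted p = 0.0377). Olfr860 had 0.507, 0.542 and 0.471 CPM with decanal, against 1.90, 1.13 and 0.847 CPM with acetophenone, a log2 change of -1.35 (SE 0.47, adjusted p = 0.0473). Each of this pair stayed called in 1 of 6 such fits, Olfr859 without decanal library 2 and Olfr860 without acetophenone library 3. In the other 4 of these fits no chromosome 9 gene was called lower, and all 14 called without acetophenone library 1 were higher. The count of 14 was 5 without acetophenone library 2, 7 without acetophenone library 3, 7 without decanal library 2 and 6 without decanal library 3.

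**Figure D4:**
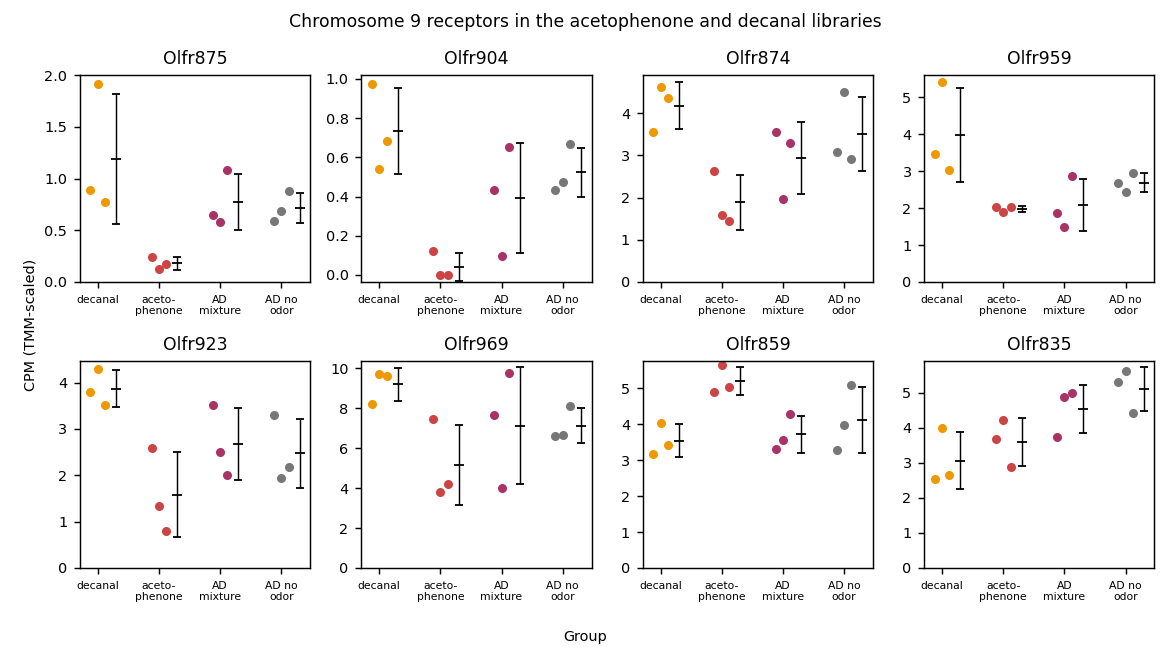
Level of 8 chromosome 9 receptors in every library of the AD table, in CPM, for decanal, acetophenone, their mixture and no odor from left to right; points are libraries and bars the mean ± SD of 3. Olfr875 sits between 0.771 and 1.92 CPM with decanal and between 0.125 and 0.243 CPM with acetophenone.

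In sign, all 8 genes of MOR224 and all 5 of MOR161 were higher with decanal than with acetophenone, with medians of 0.92 and 1.14, and 15 of 19 in MOR171 were, with a median of 0.43. In MOR171 the count was 13 with DESeq2 size factors and 12 with offsets for transcript length and GC content. In MOR165 2 of 6 were, with a median of -0.19. The count was 5 of 5 in MOR223, 5 of 7 in MOR162, 2 of 4 in MOR145 and 1 of 3 in MOR146. Their medians were 0.61, 0.20, 0.02 and -0.55. Members of a family resemble each other in sequence, so they are not independent of each other.

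The mixture of decanal and acetophenone was set against no odor to see the receptors under both odorants at once. Olfr832 rose and Olfr898 fell among the 83 genes, with a median log2 fold change of -0.05, beside 22.3% of all genes called and 3 higher and 41 lower among other receptors. Without mixture library 3 the median was -0.24, beside -0.24 over other receptors, which had -0.10 with all libraries. Olfr898, of family MOR170, had 0.391, 0.627 and 0.738 CPM with the mixture, against 1.34, 0.901 and 1.25 CPM without odor, a log2 change of -0.99 (SE 0.33, adjusted p = 0.0456) without overlap. Olfr832, of family MOR153, had 1.43, 0.337 and 0.955 CPM with the mixture, against 0.433, 0.0859 and 0.333 CPM without odor, and these overlapped, with a log2 change of 1.65 (SE 0.56, adjusted p = 0.0463). Olfr954, called with decanal alone, had 0.782, 1.25 and 1.48 CPM with the mixture, against 0.473, 0.687 and 0.333 CPM without odor, and missed the threshold (log2 fold change 1.23, adjusted p = 0.0531). When libraries were left out in turn Olfr898 stayed called in 2 of 6 fits and Olfr832 in 1. DESeq2 called neither, and the count was 0 without no-odor library 1 and 1 without no-odor library 2 or 3 or mixture library 1 or 2. Of the genes that differed between the single odorants, Olfr969 had 7.65, 4.00 and 9.76 CPM with the mixture, and these values overlapped both single odorants. Olfr904 had 0.434, 0.0964 and 0.651 CPM with the mixture, which also overlapped both. Olfr875 had 0.652, 0.578 and 1.08 CPM with the mixture, and Olfr859 had 3.30, 3.57 and 4.30 CPM, and in both genes these overlapped the decanal mice and not the acetophenone mice.

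In the OC table octanal mice were set against no-odor mice. Olfr971 and Olfr895 rose among the 81 genes tested, and none fell, beside 29.4% of all 19175 genes called. The median log2 fold change was 0.26, with 61 of 81 positive, beside 0.36 over the 843 other receptors, of which 155 rose and 4 fell. With offsets for transcript length and GC content the median was 0.09, with 47 of 81 positive, beside 0.19 over other receptors, of which 79 rose and 5 fell. Without octanal library 3 the medians were 0.14 and 0.28. Olfr971 (ENSMUSG00000093934), of family MOR171, had 0.941, 0.594 and 0.714 CPM with octanal, against 0.0816, 0.289 and 0.142 CPM without odor, a log2 change of 2.13 (SE 0.54, adjusted p = 0.00834). The groups did not overlap, but the no-odor values rest on 2, 6 and 3 counts and the octanal values on 21, 14 and 17. The call stood without any 1 of the 6 libraries. Olfr895 (ENSMUSG00000096427), of family MOR170, had 1.48, 1.78 and 2.94 CPM with octanal, against 0.938, 1.35 and 0.853 CPM without odor, a log2 change of 0.99 (SE 0.35, adjusted p = 0.0461). With each library dropped in turn this call stayed in 2 of 6 fits, and it stayed in 5 of 9 other settings, and the log2 change was 0.64 (adjusted p = 0.229) without octanal library 3. Olfr873, at 7.80, 9.34 and 10.0 CPM with octanal and 7.18, 7.48 and 6.02 CPM without odor, missed the threshold (log2 fold change 0.40, adjusted p = 0.0619). The count of 2 was 4 without no-odor library 1, 5 without no-odor library 2 and 1 without octanal library 2.

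For cis-3-hexenol the no-odor mice were those used for octanal. Olfr895 was the 1 gene called of 81, beside 12.2% of all genes, and it had 1.99, 2.72 and 3.13 CPM with cis-3-hexenol, against 0.938, 1.35 and 0.853 CPM without odor, a log2 change of 1.32 (SE 0.35, adjusted p = 0.0248) without overlap. With each library dropped in turn the call stayed in 2 of 6 fits, those without no-odor library 2 or cis-3-hexenol library 1, and the adjusted p was between 0.064 and 0.11 in the others. The log2 fold change was positive for 71 of 81, with a median of 0.43, beside 0.42 over the other receptors, of which 86 rose and none fell. With offsets for transcript length and GC content the median was 0.25, with 56 of 81 positive, beside 0.23 over other receptors, of which 21 rose and 1 fell. Without no-odor library 2 the median was 0.59, beside 0.53 over other receptors. Olfr957 had 3.61, 3.36 and 4.47 CPM with cis-3-hexenol, against 0.897, 2.99 and 1.42 CPM without odor, and missed the threshold (log2 fold change 1.12, adjusted p = 0.0529). Olfr934, of family MOR224, had 1.31, 1.88 and 2.12 CPM with cis-3-hexenol, against 0.449, 1.21 and 0.379 CPM without odor, and missed it too (log2 fold change 1.39, adjusted p = 0.058). In both genes no-odor library 2 was the highest of its group. Without it 7 genes were called, of 83 tested in that fit. Without no-odor library 1 the count was 3, without no-odor library 3 it was 2, and without cis-3-hexenol library 2 or 3 it was 0.

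The mixture of octanal and cis-3-hexenol was set against no odor as well. Of the 81 genes 7 rose, 8.64%, and none fell, beside 24.2% of all genes called and 11.5% higher, and beside 29.2% of the other receptors. The median log2 fold change was 0.54, the same as over other receptors, and 78 of 81 were positive. With offsets for transcript length and GC content it was 0.23, with 68 of 81 positive and 5 rather than 23 genes at an unadjusted p under 0.05, beside 0.30 over other receptors, of which 63 rather than 246 rose. Without no-odor library 1 the median was 0.39, beside 0.47 over other receptors. It was 0.72 without no-odor library 2 and 0.70 without mixture library 3, beside 0.67 and 0.60. Olfr979 (ENSMUSG00000059473), of family MOR223, had 3.05, 2.34 and 1.11 CPM with the mixture, against 0.367, 0.723 and 0.805 CPM without odor, a log2 change of 1.79 (SE 0.40, adjusted p = 0.00444). Its call stood without any 1 of the 6 libraries and under every other setting. Olfr857 (ENSMUSG00000094678), of family MOR146, had 1.71, 1.03 and 2.30 CPM with the mixture, against 0.775, 0.772 and 0.426 CPM without odor, a log2 change of 1.34 (SE 0.35, adjusted p = 0.0115). Olfr859, its relative in MOR146, had 4.93, 5.18 and 6.04 CPM with the mixture, against 2.81, 3.81 and 3.88 CPM without odor, a log2 change of 0.62 (SE 0.18, adjusted p = 0.0214). Olfr983 had 4.44, 3.57 and 4.19 CPM with the mixture, against 2.37, 2.03 and 2.94 CPM without odor, a log2 change of 0.74 (SE 0.23, adjusted p = 0.0321). In these 4 genes the groups did not overlap. When libraries were left out in turn Olfr857 stayed called in 5 of 6 fits, Olfr859 in 4 and Olfr983 in 2. Of 9 other settings, Olfr857 stayed called in 7, Olfr859 in 8 and Olfr983 in 7.

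The other 3 genes called with this mixture had groups that overlapped. Olfr918 had 1.34, 0.977 and 0.507 CPM with the mixture, against 0.571, 0.289 and 0.189 CPM without odor (log2 fold change 1.40, SE 0.46, adjusted p = 0.0375). Olfr895 had 3.01, 2.15 and 1.29 CPM with the mixture, against 0.938, 1.35 and 0.853 CPM without odor (log2 fold change 1.05, SE 0.35, adjusted p = 0.0415). In both, mixture library 3 was the lowest. Olfr921 had 8.95, 10.7 and 10.5 CPM with the mixture, against 9.66, 5.21 and 5.50 CPM without odor (log2 fold change 0.56, SE 0.19, adjusted p = 0.0468), and its log2 fold change was 0.10 (adjusted p = 0.793) with offsets for transcript length and GC content. By the same count Olfr918 and Olfr895 stayed called in 2 fits and Olfr921 in 1. Under other settings Olfr918 stayed called in 5 of 8, and Olfr895 and Olfr921 in 5 of 9 each. With the length and GC offsets 2 chromosome 9 genes were called in all. The count of 7 was 12 without no-odor library 2, 11 without mixture library 3, 3 without mixture library 1, and 6 without no-odor library 3.

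**Figure D5:**
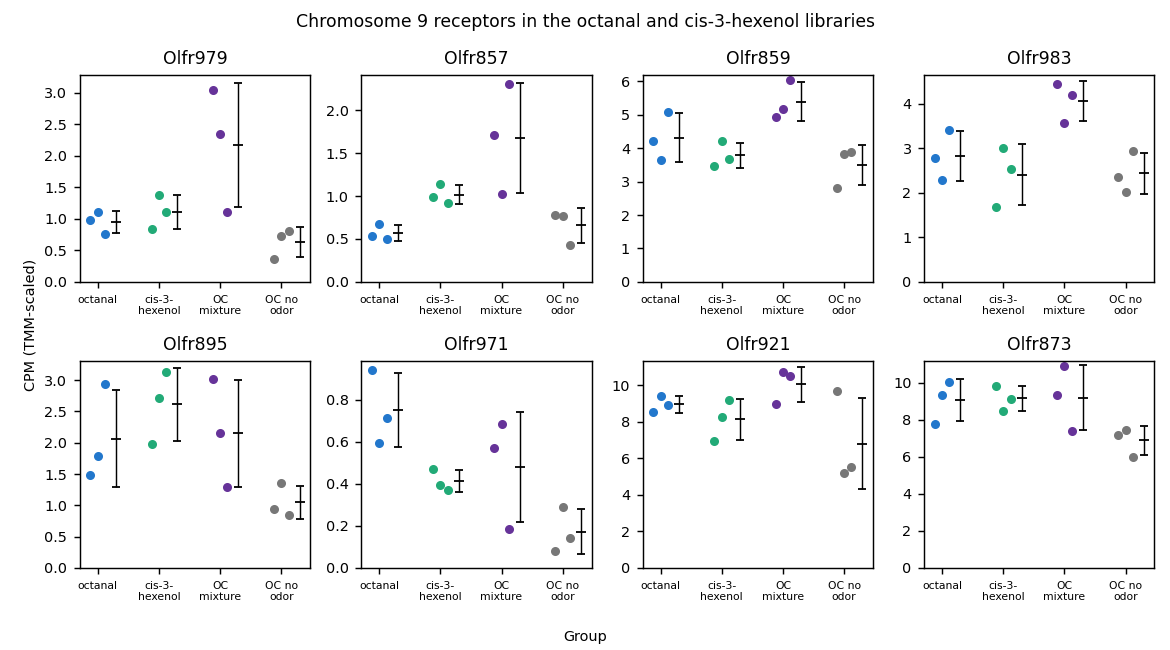
Level of 8 chromosome 9 receptors in every library of the OC table, in CPM, for octanal, cis-3-hexenol, their mixture and no odor from left to right; points are libraries and bars the mean ± SD of 3. Olfr979 reaches 3.05 CPM with the mixture and stays at or below 0.805 CPM without odor.

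Octanal and cis-3-hexenol were compared directly. No gene of the 81 was called by edgeR, beside 0% of all genes, while 10 of them had an unadjusted p under 0.05, beside 13% of all genes and 8.42% of other receptors. With the 6 libraries compared only, edgeR called 484 genes higher and 319 lower of 18373. With no low-count filter it called 324 higher and 257 lower of 32796. In both fits 0 chromosome 9 genes were called. DESeq2, which called 158 genes higher and 88 lower with octanal over the whole table, gave an adjusted p to none of the 81, because its own filter removed genes at their counts. The log2 fold change was negative, meaning lower with octanal, for 60 of 81, with a median of -0.25, beside -0.07 over other receptors, and without octanal library 3 these were -0.38 and -0.15. The smallest p belonged to Olfr893, of family MOR170, with 1.79, 1.1 and 1.60 CPM with octanal, against 0.523, 0.89 and 0.553 CPM with cis-3-hexenol, a log2 change of 1.18 (95% interval 0.28 to 2.09, adjusted p = 0.262). Olfr881 had 1.34, 1.23 and 2.18 CPM with octanal, against 3.66, 3.36 and 2.17 CPM with cis-3-hexenol, a log2 change of -0.94 (95% interval -1.67 to -0.21, adjusted p = 0.268). Olfr889, of the same family MOR162, had 1.75, 1.15 and 1.55 CPM with octanal, against 1.83, 3.02 and 2.76 CPM with cis-3-hexenol, a log2 change of -0.78 (95% interval -1.43 to -0.12, adjusted p = 0.302). These intervals are not corrected for the number of genes, and each of them leaves room for a difference of more than a doubling between the odorants. Decanal and octanal, both straight-chain aldehydes, were given in different tables, so no test was made between them.

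A list of 25 genes of odor transduction, receptor export and receptor choice was followed beside the receptors. With decanal 13 of 25 fell and Gng13, a G protein subunit gene, rose, with a median log2 fold change of -0.24, while with acetophenone none was called and the median was 0.04. With the AD mixture 13 fell and 1 rose, and between decanal and acetophenone 13 were lower and 1 higher with decanal. The fallen genes included Adcy3 (log2 fold change -0.40 with decanal), Gnal (-0.38) and Rtp1 (-0.33), which helps receptors reach the cell surface. With octanal 10 rose and 2 fell, with cis-3-hexenol 9 rose and 1 fell, and with their mixture 12 rose and 1 fell. Adcy3 rose in each of the 3, by log2 fold changes of 0.57, 0.38 and 0.40, while Omp, a marker of mature olfactory neurons, fell in each, by log2 fold changes of -0.45, -0.31 and -0.32. Between octanal and cis-3-hexenol none was called. Of all genes, 23.9% were called with decanal, 22.3% with the AD mixture and 27% between decanal and acetophenone. The shares were 29.4% with octanal, 12.2% with cis-3-hexenol and 24.2% with their mixture. This list and the markers below were read only from fits without offsets for transcript length and GC content.

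Markers of other tissues and of mitochondrial RNA moved with the groups. The 6 erythroid markers summed to between 2145 and 2579.6 CPM in decanal mice, between 228 and 627 CPM in acetophenone mice and between 494 and 650.4 CPM in the AD no-odor mice, and all 6 were higher with decanal than with acetophenone. The 15 transcripts encoded by mitochondrial DNA summed to between 7590.5 and 7957 CPM in decanal mice, between 2663 and 3334 CPM in acetophenone mice and between 2301 and 2748 CPM in no-odor mice. Of 9 neutrophil and marrow markers 8 were higher with decanal than with acetophenone, as were 5 of 7 bone markers. In AD mixture mice, against no-odor mice, all 6 erythroid, 14 of 15 mitochondrial, 8 of 9 marrow and 6 of 7 bone markers were higher, and the mitochondrial sum was between 7462 and 8931 CPM. In the OC table the erythroid sum was between 747 and 1125 CPM in octanal mice, between 1296 and 1945 CPM in cis-3-hexenol mice and between 847 and 1820.5 CPM in mixture mice, against 2163 to 4483 CPM in no-odor mice, with 6, 4 and 5 of the 6 markers lower. The bone sum was between 1048 and 1220.2 CPM in octanal mice, between 1434 and 1781 CPM in cis-3-hexenol mice and between 1099.6 and 1269.8 CPM in mixture mice, against 2059 to 3262 CPM in no-odor mice, with 6, 5 and 6 of the 7 markers lower. The mitochondrial sum was between 3789 and 4632 CPM in octanal mice, between 7194 and 8021 CPM in cis-3-hexenol mice and between 4677 and 8473 CPM in mixture mice, against 6599 to 9146 CPM in no-odor mice, with 13, 0 and 2 of the 15 transcripts lower. Of the marrow markers 8 of 9 were lower with octanal, none with cis-3-hexenol and 6 with the mixture. The 10 markers of mature olfactory neurons summed to between 19345 and 21220 CPM in decanal mice, between 20243 and 20833 CPM in acetophenone mice and between 19508 and 20808 CPM in the AD no-odor mice. In the OC table they summed to between 19242 and 20554 CPM in octanal mice, between 20746 and 21544 CPM in cis-3-hexenol mice and between 21184 and 21915 CPM in mixture mice, against 20767 to 23170.5 CPM in no-odor mice. Taken gene by gene, their median log2 fold change was 0.23 with octanal, 0.28 with cis-3-hexenol and 0.32 with the mixture, with 4, 5 and 6 called higher and 2, 1 and 1 called lower genes, while the median of the sums was below that of no-odor mice in each of these groups. With decanal 2 of the 10 were higher and 4 lower, at a median of -0.19, and with the AD mixture 2 were higher and 6 lower, at -0.30. The part of these markers in the receptor results was not tested.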

How the data were processed

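The deposited tables hold estimated counts per Ensembl gene, one table for AD and one for OC, not scaled between libraries; stranded poly(A) libraries had been made from a detergent supernatant, per the labels' protocols. The submitters' processing notes name STAR 2.7.10b, Salmon 1.10.1, R 4.4.2 and the build GRCm39, without the role of each, and the annotation release is not given in the sources used here. GENCODE M21 (GRCm38), joined by Ensembl ID, gave symbols, lengths and GC content and named 52029 of 57010 IDs; the rest held 0.313% of the AD and 0.321% of the OC counts. Of the deposited values 12.8% (AD) and 12.6% (OC) held decimals, and rounding moved them by 0.5 or less.

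Each table was fitted once over its 12 libraries and 4 groups with edgeR 4.0.16 in R 4.3.3 (filterByExpr, TMM, two-sided quasi-likelihood F-test, Benjamini-Hochberg adjustment over all genes, called under 0.05). SE is the log2 fold change over the square root of F. CPM are TMM-scaled, and TPM use the longest annotated transcript. Low-count genes do not reach the test. The intervals cover counting error or the fit only, and replicates are labelled as biological. The code was tested on simulated counts. Alternatives were DESeq2 1.42.0, its size factors, other filters, a robust fit, loess offsets for length and GC, a replicate block, fits of the 6 libraries compared, and leaving out each library.

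The receptors and lists were chosen with earlier results of these data known. Named genes are called ones whose groups do not overlap and whose mean count reaches 20, the 3 with the smallest p of each comparison, the first 10 by level, those with no count, and the receptors with published ligands. Other called genes, Olfr972 and the examples of the transduction list were named after their values were seen.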

Additional observations from a re-analysis of the deposited data

How the results depend on the processing

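All 43 results on single receptors kept their direction in 632 pairings of a result with an alternative setting. Of these 479 also kept the side of the threshold, 127 lost the call and 26 gained a call. Most of the 43 were chosen for a call or a small p in these same libraries, so a kept direction was likely from the start. The count of called receptors was less stable. With no low-count filter it was 5 for acetophenone (0 as reported), 4 for decanal (2), 4 for the AD mixture (2), 4 for octanal (2), 14 for cis-3-hexenol (1) and 17 for the OC mixture (7), with more genes tested. With a filter of 1 CPM in 3 libraries it was 1 for the AD mixture and 1 for octanal. With the 6 libraries compared only it was 4 for decanal, 1 for the AD mixture, 1 for octanal, 2 for cis-3-hexenol and 3 for the OC mixture. DESeq2 called 0 for the AD mixture and 4 for cis-3-hexenol (37 of 81 had no adjusted p there), and the robust fit called 4 for cis-3-hexenol. With length and GC offsets the count was 1 for the AD mixture, 2 for cis-3-hexenol and 2 for the OC mixture. For cis-3-hexenol 1 of these was higher and 1 lower. For octanal, too, 1 was higher and 1 lower with these offsets. Unless a value above shows it, the cause was not tested.

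Leaving out each library in turn gave 0 to 1 for acetophenone, 0 to 3 for decanal, 0 to 2 for the AD mixture, 5 to 14 for decanal against acetophenone, 1 to 5 for octanal, 0 to 7 for cis-3-hexenol, 3 to 12 for the OC mixture and 0 throughout for octanal against cis-3-hexenol.

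Groups share replicate numbers, but the sample titles do not say whether the numbers pair the samples, and the main fits used no pairing. Deviations from the group means of same-numbered libraries had correlations between -0.19 and 0.24, and no comparison had all 3 over 0.1. With the replicate block 0 receptors were called for acetophenone, 2 for decanal, 0 for the AD mixture, 14 for decanal against acetophenone, 1 for octanal, 1 for cis-3-hexenol, 5 for the OC mixture and 0 for octanal against cis-3-hexenol. With the block and length and GC offsets these were 0, 3, 0, 12, 1, 0, 2 and 0 in the same order. Mean counts near 22 per library limit what most of these receptors can show.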
